A study of Homo sapiens with 6 samples.

Results

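E2F1 peaks that were called at promoters only in cells given the EZH2 inhibitor GSK126 numbered 4384, out of 14276 E2F1 peaks in the GSK126 list. They were chosen by the peak calls themselves: the summit lay within 1 kb of a transcription start site (TSS) of any gene, and the peak shared no base with an E2F1 peak of the DMSO or the untreated list. Their absence from those lists and their own peak values are therefore a description and carry no test. Of all 10539 GSK126 peaks at promoters, the share without a DMSO or untreated overlap was 41.6% (95% interval 40.7% to 42.5%). Intervals for shares were computed by the exact Clopper-Pearson method at 95%, and like all others here they cover counting error only. The untreated list stood apart with 1056 peaks in all, against 15703 in DMSO, and leaving it out of the rule gave 4407 peaks.

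ChIP-seq, the sequencing of DNA recovered with an antibody against a chromatin protein, was done in MDA-MB-231, a human cell line derived from triple-negative breast cancer. The E2F1 libraries came from untreated cells, cells kept for 72 h in DMSO, the solvent, and cells kept for 72 h in 1 µM GSK126. The histone mark H3K27me3 was profiled after a 24 h transduction with a control shRNA or with an shRNA against E2F1 (shE2F1), followed by 72 h of puromycin at 2 µg/ml. Each of these 5 conditions has 1 library, so no difference between conditions has a replicate check. H3K27me3 was thus read in other cells than those given GSK126, and H3K27me3 under GSK126 was not analysed here, nor was the level of E2F1 after knockdown.

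E2F1 is a transcription factor that binds GC-rich promoters, classically those of genes for S-phase entry and DNA replication, and is held in check by the retinoblastoma protein. EZH2 is the methyltransferase within Polycomb repressive complex 2 (PRC2), and H3K27me3, the mark it places, is typical of silenced chromatin. GSK126 is a small molecule that inhibits the enzyme.

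The E2F motif was taken as TTCCCGC, the form TTCGCGC, the form TTGCCGC or the form TTGGCGC on either strand. The strongest GSK126-only peaks with such a match within 100 bp of the summit, at protein-coding genes, are shown to let the site be seen in its surroundings. Each window is 30 bases of the forward strand of GRCh38, with the motif in capitals. The windows are chr12:31326340-31326369 (SINHCAF), chr3:44712492-44712521 (ZNF502), chr15:76905471-76905500 (SCAPER), chr12:6937972-6938001 (ATN1), chr2:189661404-189661433 (ASNSD1) and chr7:44885640-44885669 (PURB).
SINHCAF: agctccgcggcGCGGGAAacgcggcggcca
ZNF502: ggctgggcttgGCGGGAAacaaagctggag
SCAPER: gcgcacgcccgTTCGCGCcgttggggcgcc
ATN1: gagcagcgcgcGCGCGAAgaaaaggagcgc
ASNSD1: tggtaagactcGCGGGAAaagaaagggtga
PURB: gcgccgggcggGCGGCAAgctgagagtagg
The motif centre lay 1 bp from the summit at ZNF502, 4 bp at PURB, 6 bp at ATN1, 11 bp at SINHCAF, 14 bp at ASNSD1 and 21 bp at SCAPER. The windows were chosen for a match near the summit.

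A pair of longer windows, both outside annotated exons, holds more than 1 match. The window at ENSG00000282440, a long non-coding RNA gene, is chr2:156320691-156320817, and that at SGSM1, a modulator of small GTPase signalling, is chr22:24806040-24806166, again on the forward strand with motifs in capitals. At SGSM1 the capitals are 2 matches, 1 on each strand, that share bases.
ENSG00000282440: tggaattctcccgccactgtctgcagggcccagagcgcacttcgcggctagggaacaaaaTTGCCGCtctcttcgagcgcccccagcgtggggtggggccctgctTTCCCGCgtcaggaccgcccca
SGSM1: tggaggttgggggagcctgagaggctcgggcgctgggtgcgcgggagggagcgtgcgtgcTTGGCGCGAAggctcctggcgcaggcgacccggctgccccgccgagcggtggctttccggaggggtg

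The GSK126-only promoter peaks were weaker and narrower than promoter peaks also called without the inhibitor. Fold enrichment, the ratio of fragments to background at the summit, had a median of 5.18 (quartiles 4.19 and 6.48, range 2.33 to 18.7). Promoter peaks that DMSO and GSK126 shared without the untreated cells, 5190 in number, had a median fold of 9.0, and the 942 found in all 3 lists had one of 20.6. The median −log10 q was 9.44 in GSK126-only peaks, 26.5 in peaks shared with DMSO and 106 in those of all 3 lists. Median widths were 493, 932 and 1278 bp in the same order. A −log10 q of 20 or more was reached by 492 GSK126-only peaks (11.2%), against 66.1% of the peaks shared with DMSO.

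How often a GSK126 promoter peak lacked a DMSO or untreated partner therefore depended on its strength. The share was 91.9% at a −log10 q of 2 to 5, 81.3% at 5 to 10, 53.0% at 10 to 20, 17.7% at 20 to 40 and 3.62% at 40 to 80. Above 80 a single peak was GSK126-only, or 0.101%.

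**Figure D1:**
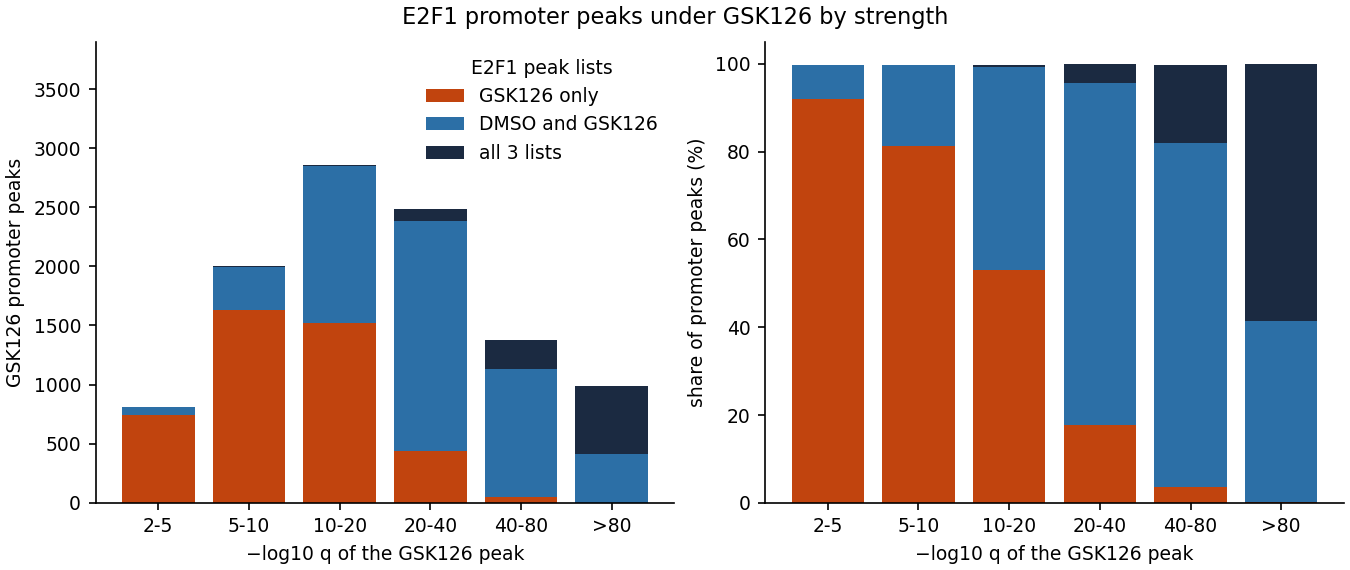
Left, the number of E2F1 promoter peaks of the GSK126 library by −log10 q of the peak. Right, the same as a share of each bin, where the colours give the E2F1 lists in which the site was called and the short gap to 100% is the 23 peaks shared with untreated cells only. The GSK126-only share goes from 91.9% in the weakest to 0.101% in the strongest bin.

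The number of fragments at each summit could be recovered from fold and p-value, which allows a comparison with what was called in DMSO. GSK126-only peaks held a median of 25 fragments (quartiles 19.0 and 31.0), or 14.7 times the lowest background of the library. Of the 6709 DMSO promoter peaks, 44.5% lay below that multiple of their own lowest background. Of the GSK126-only peaks, 74.7% lay at or above the lower quartile and 41.4% at or above the median of DMSO promoter peaks on this scale. Over all promoter peaks of each list, however, the scale ran higher in GSK126. The median multiple was 20.6 in GSK126 (median fold 7.22) and 15.4 in DMSO (median fold 5.70). Promoter peaks shared with DMSO but not with untreated cells had a median multiple of 25.3 in GSK126. These sets hold different sites, and the same sites were not compared between the libraries. Whether the GSK126-only sites were strong enough to be called in DMSO was not tested. The lowest background was 1.7 fragments in GSK126, 1.82 in DMSO and 0.668 in the untreated library. Signal at these sites in DMSO, below the calling threshold, was not analysed here. In the opposite direction, 394 DMSO promoter peaks (5.87%) had no GSK126 or untreated overlap, and their median fold was 4.05.

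The sites nearest the overlap limit of the rule were mostly weak. The GSK126-only peak nearest a DMSO or untreated peak, at the microRNA gene MIR4290, abutted it with a gap of 0 bp (fold 4.07, −log10 q 3.62). The next gaps were 2 bp at ENSG00000288774 and 41 bp at LRP8, a lipoprotein receptor gene. Just outside, the promoter peak with the smallest overlap was that at SLC22A3, an organic cation transporter gene, with 4 shared bases (fold 4.81, −log10 q 4.78). Of these 4 sites, 3 were below the lower quartile of −log10 q of the GSK126-only class, 6.01, and LRP8 was above it (−log10 q 15.6). A DMSO or untreated peak lay within 500 bp of 116 GSK126-only peaks and within 5000 bp of 500 (11.4%). On the distance limit, the outermost included summits lay 994 bp from the TSS of ENSG00000278869 (fold 5.83) and 989 bp from that of SMAD3, a TGF-β signal transducer (fold 4.78). The nearest excluded summit lay 1002 bp from NAGS, a urea cycle enzyme gene (fold 7.42).

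The 12 strongest sites at protein-coding TSSs included those of 2 Rab GTPases and an autophagy enzyme, and by the rule none had a counterpart in DMSO or untreated cells. The highest −log10 q was at RAB1B, a GTPase of transport from endoplasmic reticulum to Golgi, on chromosome 11 from 66268261 to 66268605, between genes. Its fold was 13.4 with 106 fragments at a summit 134 bp upstream of the TSS. RAB5C, a GTPase of early endosomes, had the highest fold of all GSK126-only promoter peaks, 18.7, on chromosome 17 from 42154852 to 42155302 in an intron. Both sites carried an H3K27me3 peak in shE2F1 only, with a fold of 5.15 at RAB1B and 3.92 at RAB5C.

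ABR had a peak on chromosome 17 from 1115192 to 1115615 in a non-coding part of an exon, with a fold of 17.3 and 78 fragments. ATG7, the activating enzyme of the autophagy conjugation systems, had one of fold 16.6 on chromosome 3 from 11272218 to 11272758, its summit 12 bp upstream of the TSS. At neither gene was H3K27me3 called in either shRNA library. SINHCAF, a subunit of the SIN3-histone deacetylase complex, had a peak of fold 14.5 on chromosome 12 from 31326107 to 31326845.

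Among the other strong sites, the fold was 12 at PPP6R1, a regulatory subunit of protein phosphatase 6, and 15.3 at the zinc finger gene ZNF502. It was 15.5 at SCAPER, a cyclin A-interacting protein, and 15.6 at SDSL, a serine dehydratase-like gene. CARD19 had a fold of 15.3, the nucleotidase gene CANT1 17.0 and the transcriptional corepressor gene ATN1 13.7. An E2F motif was present at 4 of the 12, namely SINHCAF, ZNF502, SCAPER and ATN1, the last of which had 2. H3K27me3 was called in shE2F1 at 5, RAB1B, RAB5C, PPP6R1, CARD19 and CANT1, and in control shRNA at none.

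At the level of genes, 4253 of 19962 protein-coding genes had a GSK126-only peak within 1 kb of a TSS, which is 21.3%. Of these, 3698 genes (18.5% of all) had no DMSO or untreated peak at any TSS, whereas the other 555 had one at another position of their promoters. A GSK126 peak of any kind was present at 10277 protein-coding genes, so that 36% (35.1% to 36.9%) of the genes bound under GSK126 had GSK126-only peaks and nothing in the other lists. With genes of every type the number was 5621, including 1178 long non-coding RNA genes. The nearest TSS was that of a protein-coding gene for 3680 peaks (83.9%), of a long non-coding RNA gene for 604 (13.8%) and of a microRNA gene for 18. A gene counted, and is named below, for any of its TSSs within 1 kb, which need not be the nearest. The peak named for POLD3, for example, was assigned LIPT2 as nearest, that for EIF3E EMC2, that for TRAPPC1 CNTROB, that for GTF2H3 EIF2B1, that for KIF1C INCA1 and that for KMT2C FABP5P3.

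Classical E2F1 targets were seldom among these genes, and most of them had a peak without the inhibitor as well. Of 56 cell cycle and DNA replication genes, 3 had a GSK126-only peak (5.36%, interval 1.12% to 14.9%) and 54 had a GSK126 peak together with a DMSO or untreated one. The 3 were CCND1, encoding cyclin D1 (fold 5.89), POLD3, a subunit of DNA polymerase delta (fold 7.76), and ORC2, a subunit of the origin recognition complex (fold 2.94). CCND1 and ORC2 had an E2F motif within 100 bp of the summit, and H3K27me3 was called at none of the 3 in either library. DNA repair genes had a GSK126-only peak in 7 of 69 cases (10.1%), led by XRCC4 of the end-joining pathway (fold 13.0), and splicing factors in 8 of 74 (10.8%), led by SF3B1 (fold 6.30). Mitosis genes were at 12 of 60 (20.0%), close to the 21.3% over all genes. The strongest were CENPE, a kinetochore motor (fold 7.85), STAG2, a cohesin subunit (fold 8.05), and MAD1L1 of the spindle checkpoint (fold 5.75). All 60 mitosis genes were bound under GSK126, however. Only 15.0% of them (7.10% to 26.6%) had GSK126-only peaks and none in the other lists, below the 36% over all bound genes.

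Proteasome and mitochondrial import genes had the highest shares over all genes of a list. A GSK126-only peak was present at 24 of 48 proteasome genes (50.0%, interval 35.2% to 64.8%), and 20 of these had no peak in the other lists. Those 20 were 50.0% (33.8% to 66.2%) of the proteasome genes bound under GSK126, an interval that holds the 36% over all bound genes. The strongest were at the regulatory particle subunits PSMD12 (fold 12) and PSMD8 (fold 8.45) and at PSMA6 of the core particle (fold 8.96). H3K27me3 was called in shE2F1 at 18 of the 24 and an E2F motif was present at 8, whereas over all 4253 genes these shares were 44.3% and 21.1%. The median −log10 q of the proteasome sites was 12.2, against 9.89 over all 4253 genes.

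Genes of mitochondrial import had such a peak in 12 of 25 cases (48.0%, interval 27.8% to 68.7%), and none of these 12 had a DMSO or untreated peak. They were 60% (36.1% to 80.9%) of the import genes bound under GSK126. TOMM7 of the outer membrane translocase had a fold of 14.4, the intermembrane chaperone gene TIMM10 7.57 and TIMM29 of the inner membrane 5.33. Oxidative phosphorylation genes were at 27 of 83 (32.5%, 22.6% to 43.7%), among them the complex I genes NDUFA11 (fold 8.33) and NDUFV2 (fold 6.87), and NDUFA4 (fold 10.8). Mitochondrial ribosomal proteins were at 23 of 78 (29.5%, 19.7% to 40.9%), with MRPL14 (fold 10.0), MRPL48 (fold 5.66) and MRPL58 (fold 6.87) in front. Cytosolic ribosomal proteins were at 24 of 86 (27.9%, 18.8% to 38.6%), with RPL21 (fold 11.8), RPS27L (fold 10.2) and RPS9 (fold 7.72) in front. The last 2 intervals hold the 21.3% of all genes.

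Autophagy genes had a GSK126-only peak in 15 of 37 cases (40.5%, 24.8% to 57.9%), against 21.3% over all genes. After ATG7, the strongest were at ULK3, a kinase of the ULK family (fold 11.3), and UVRAG, a partner of the VPS34 lipid kinase (fold 8.21). Rab GTPases were at 21 of 63 (33.3%, 22.0% to 46.3%), with RAB13 (fold 10.3) after RAB1B and RAB5C. Vesicle coats and tethers were at 21 of 86 (24.4%, 15.8% to 34.9%), including TRAPPC1 (fold 10.5), VPS11 (fold 6.62) and COPA of the COPI coat (fold 7.27). This interval held the 21.3% of all genes. Among genes bound under GSK126, those with GSK126-only peaks and none in the other lists were 48.3% (29.4% to 67.5%) for autophagy. They were 52.6% (35.8% to 69.0%) for Rab GTPases and 35.8% (23.1% to 50.2%) for vesicle coats and tethers. Each of these intervals held the 36% over all bound genes.

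Zinc finger genes with a ZNF symbol were the most numerous list, at 158 of 508 (31.1%, 27.1% to 35.3%). Of these 158 genes, 144 had no peak in the other lists, and the strongest after ZNF502 were ZNF101 (fold 12.4) with 2 E2F motifs and ZNF443 (fold 9.65). Solute carriers were at 76 of 371 (20.5%), led by the mitochondrial carriers SLC25A38 (fold 9.30) and SLC25A33 (fold 10.8) and by SLC49A4 (fold 11.8). Apoptosis genes were at 7 of 32 (21.9%), among them the pore former BAX (fold 6.86) and the survival factor MCL1 (fold 7.22). The shares of solute carriers and apoptosis genes were near that of all genes.

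**Figure D2:**
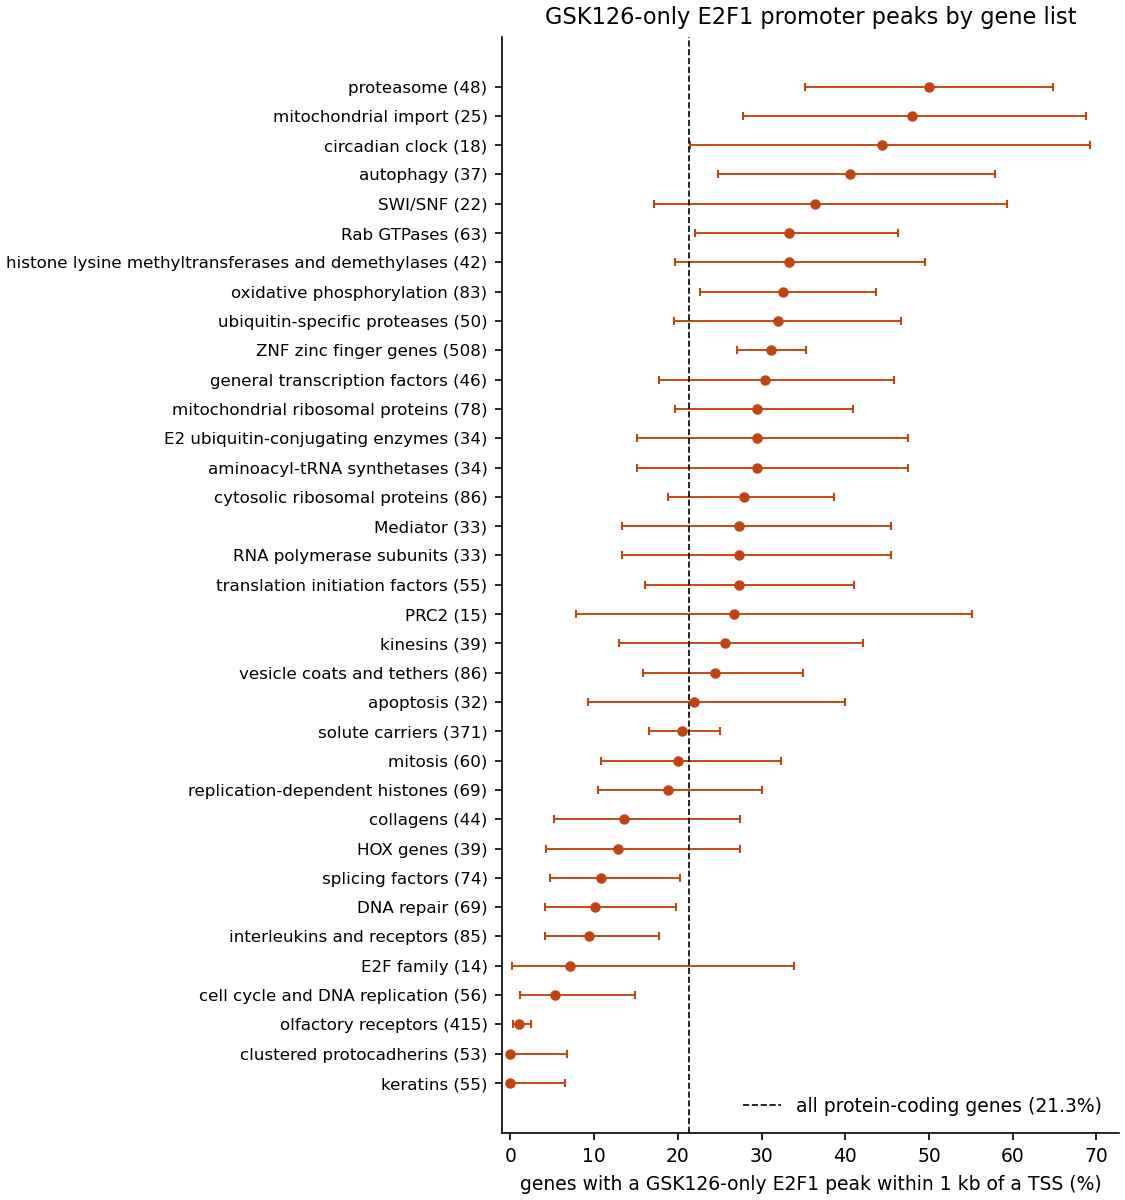
Share of the genes of each list with a GSK126-only E2F1 peak within 1 kb of a TSS, with the number of genes in brackets and 95% exact intervals as bars. The dashed line is the share over all protein-coding genes, 21.3%; proteasome genes are highest at 50.0% and keratins and clustered protocadherins lowest at 0%.

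Several tissue-restricted families had few E2F1 peaks of any kind. None of 53 clustered protocadherins and none of 55 keratins had a GSK126-only peak, with exact upper limits of 6.72% and 6.49%. Olfactory receptors were at 4 of 415 (0.964%), all weak, the strongest being OR10K2 (fold 5.19, −log10 q 5.64). Interleukins and their receptors were at 8 of 85 (9.41%), led by IL17RD (fold 5.89), and collagens at 6 of 44 (13.6%, 5.17% to 27.4%), led by COL13A1 (fold 4.58). HOX genes were at 5 of 39 (12.8%, 4.30% to 27.4%), led by HOXB9 (fold 7.69), and HOXC6 and HOXC9 shared 1 peak (fold 6.63). The intervals of collagens and HOX genes held the 21.3% of all genes. No HOX gene had a DMSO or untreated peak. Among the genes of each family that had a GSK126 peak, those with GSK126-only peaks and none in the other lists were counted. They were 5 of 5 HOX genes, with HOXC6 and HOXC9 counted by the same peak, and 3 of 4 olfactory receptors (19.4% to 99.4%). They were also 6 of 11 collagens (54.5%, 23.4% to 83.3%) and 8 of 17 interleukins and receptors (47.1%, 23% to 72.2%). The intervals of olfactory receptors, collagens and interleukins held the 36% over all genes bound under GSK126. H3K27me3 was called at none of these 5 HOX genes' peaks in either shRNA library, although silent HOX clusters are textbook carriers of the mark.

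For the next lists, of histones, kinesins, translation, transcription, chromatin and ubiquitin genes, the shares lay between 18.8% and 36.4%, and the interval of each held the share of all genes. Replication-dependent histones were at 13 of 69 (18.8%), led by H2BC6 (fold 6.68) and H4C12 (fold 8.18), and none of the 13 carried H3K27me3 in either library. Their copies are alike in sequence, so the assignment of reads among them is uncertain. Kinesins were at 10 of 39, led by KIF13B (fold 10.3) and KIF1C (fold 7.42). Translation initiation factors were at 15 of 55, with EIF3E (fold 8.51), EIF5 (fold 7.09) and EIF5A (fold 9.02), and aminoacyl-tRNA synthetases at 10 of 34, with LARS1 (fold 7.25), MARS1 (fold 8.05) and TARS1 (fold 5.83).

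Of the transcription machinery, Mediator was at 9 of 33 genes, led by MED11 (fold 7.07), RNA polymerase subunits at 9 of 33, among them POLR3B (fold 9.59), and general transcription factors at 14 of 46, led by GTF2H3 (fold 6.04). SWI/SNF remodellers were at 8 of 22 (36.4%), with DPF1 (fold 9.39), SS18 (fold 6.94) and BRD7 (fold 8.36). Histone lysine methyltransferases and demethylases were at 14 of 42, with KMT5C (fold 8.64), KDM2A (fold 9.72) and KMT2C (fold 11.5). In the ubiquitin system, ubiquitin-specific proteases were at 16 of 50, led by USP45 (fold 9.80), and E2 conjugating enzymes at 10 of 34, led by UBE2V1 (fold 8.39).

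The E2F family and PRC2 bear directly on the factor and the drug target. Of 14 genes of the E2F family and its partners, 1 had a GSK126-only peak (7.14%, interval 0.181% to 33.9%). That was RBL2, which encodes the pocket protein p130. Its summit lay 44 bp downstream of the TSS, in a peak of fold 4.80 on chromosome 16 from 53434457 to 53435131. H3K27me3 was called there in both libraries, at 3.96-fold in control shRNA and 5.06-fold in shE2F1. Of 15 genes of PRC2 and its associates, 4 had a GSK126-only peak (26.7%, interval 7.79% to 55.1%). The intervals of both lists held the 21.3% over all genes. Genes with GSK126-only peaks and none in the other lists were 14.3% (1.78% to 42.8%) of the PRC2 genes bound under GSK126. Over all bound genes that share was 36%. KDM6B, a demethylase of H3K27, had a fold of 5.88 and PHF19, a PRC2 accessory subunit, one of 7.01, and neither carried H3K27me3 in either library. JARID2, another accessory subunit, had a fold of 6.05, with H3K27me3 in control shRNA (fold 3.16) and in shE2F1 (fold 4.25). AEBP2 had a fold of 6.29, with H3K27me3 in shE2F1 only (fold 3.18). None of these 5 sites had an E2F motif.

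Circadian clock genes had a GSK126-only peak in 8 of 18 cases (44.4%, interval 21.5% to 69.2%), against 21.3% over all genes. Of the 8, 5 had no peak in the other lists. Those 5 were 35.7% (12.8% to 64.9%) of the clock genes bound under GSK126, near the 36% over all bound genes. The fold was 7.86 at the kinase gene CSNK1E and 8.43 at PER2, whose peak lay nearest to the start of a non-coding gene. It was 6.68 at CRY1, 3.79 at CRY2 and 4.82 at PER1, which encode the repressors of the clock. NR1D1, a nuclear receptor that represses BMAL1, had a fold of 5.23, RORA, its activating counterpart, 3.93, and BMAL1 itself 3.58. BMAL1 was the only one of the 8 with an E2F motif. The NR1D1 site had an H3K27me3 peak in shE2F1 with a fold of 7.53 and none in control shRNA, whereas RORA had one in both (fold 3.63 and 4.47).

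The position of GSK126-only summits was close to that of other promoter peaks. The summit lay within 100 bp of a TSS for 53.9% (52.4% to 55.3%), against 57.8% of the promoter peaks shared with DMSO and 63.7% of those in all 3 lists. The difference from the peaks shared with DMSO was −3.99 percentage points (Newcombe interval −5.98 to −1.99). Summits lay upstream of the nearest TSS in 50.6% of cases. By annotation, 32.5% lay in a non-coding part of an exon of a protein-coding gene, 31.3% in an intron, 19.9% between genes, 8.46% in a coding exon and 7.78% in an exon of a non-coding gene. Protein-coding TSSs on both strands lay within 1 kb of 464 summits (10.6%), against 12.8% and 21.4% in the other promoter classes.

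**Figure D3:**
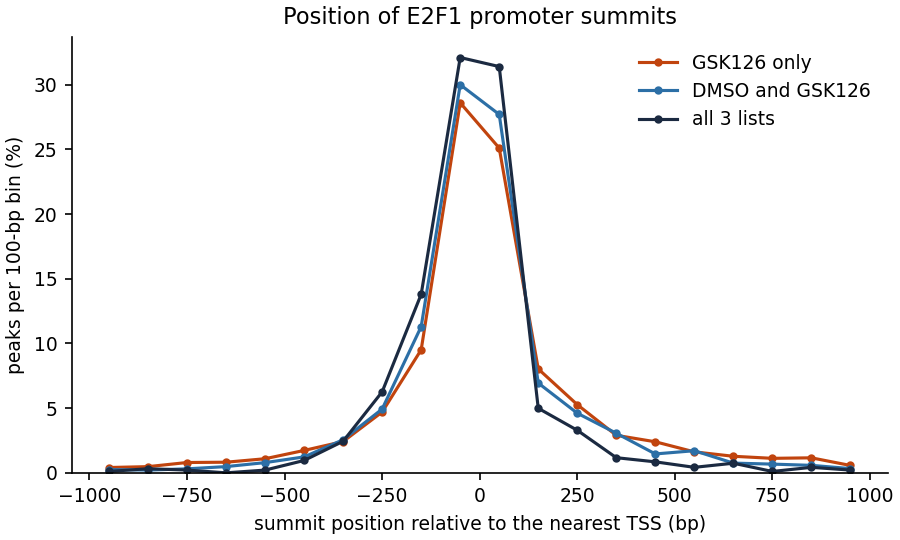
Share of summits in bins of 100 bp relative to the nearest TSS, with negative values upstream, for the 3 classes of E2F1 promoter peak. All 3 curves are highest in the bins next to the TSS, where the GSK126-only class reaches 28.6% upstream and 25.1% downstream.

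GSK126-only promoter peaks were nearly as rich in GC as the promoters bound without the inhibitor. Over 1000 bp around the summit the median GC content was 63.5% (quartiles 58.1% and 68.7%), against 64.7% in peaks shared with DMSO and 62.2% in those of all 3 lists. GSK126-only peaks away from TSSs, 2694 in number, had a median of 47.1%. The ratio of observed to expected CpG dinucleotides was 0.768 at the median, against 0.813 and 0.822 in the other promoter classes and 0.217 at distal sites. A ratio of at least 0.6, a usual mark of CpG islands, was reached by 85.7% of GSK126-only promoter peaks. By chromosome, the share of GSK126 promoter peaks that were GSK126-only went from 33.7% on chromosome 13 (interval 27% to 40.9%) to 48.9% on chromosome 22 (42.3% to 55.5%).

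An E2F motif lay within 100 bp of the summit in 954 GSK126-only promoter peaks, or 21.8% (20.5% to 23%). Over all 145921 windows of the same length at protein-coding TSSs the share was 9.16%, and at the 92827 TSSs without an E2F1 peak in any list it was 4.35%. These TSSs were poorer in GC, with a median of 50.8%. At matched GC their share was 8.66% at 60% to 70% GC, against 22.4% in GSK126-only peaks, and 11.2% at 70% to 80%, against 17.4%. In all motif comparisons with TSSs here, the TSS windows were centred on the TSS and the peak windows on the summit, where the motif is concentrated. The TSSs were also all distinct annotated starts, so that a gene can give several. The part of either point in these differences was not tested. Promoter peaks shared with DMSO held the motif in 34.2% of cases, 12.5 points more than GSK126-only peaks (difference −12.5, Newcombe interval −14.2 to −10.7), and peaks of all 3 lists in 56.4%. Distal GSK126-only peaks held it in 11%. The variant TTCCCGC was the most frequent in GSK126-only peaks, at 11.1%, followed by TTGGCGC at 4.49%, TTCGCGC at 3.95% and TTGCCGC at 3.67%. A count of 2 or more matches was found at 86 peaks (2.0%), against 4.93% and 13.6% in the other promoter classes.

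The motif was concentrated at the summit in GSK126-only peaks too. In the 50 bp before and after the summit there were 7.85 and 9.31 motifs per 100 peaks, whereas in bins 250 to 300 bp away there were 1.94 on each side. The same central bins held 15.2 motifs per 100 peaks in the class shared with DMSO and 28.8 and 30.5 in the class of all 3 lists.

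At equal strength, no difference in motif share between GSK126-only peaks and those shared with DMSO was detectable. At a −log10 q of 10 to 20 the motif was present in 24.7% of 1518 GSK126-only peaks and 24.0% of 1327 shared ones, a difference of 0.664 points (−2.51 to 3.81). At 20 to 40 the shares were 29.5% and 33.1% (difference −3.63, −8.22 to 1.24), and at 5 to 10 they were 19.0% and 20.4% (difference −1.42, −6.20 to 2.87). Within bins of GC content, by contrast, the share stayed lower in GSK126-only peaks, for example 22.4% against 34.1% at 60% to 70% GC (difference −11.7, −14.2 to −9.15). The motif difference was thus present at matched GC and not detectable at matched strength.

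**Figure D4:**
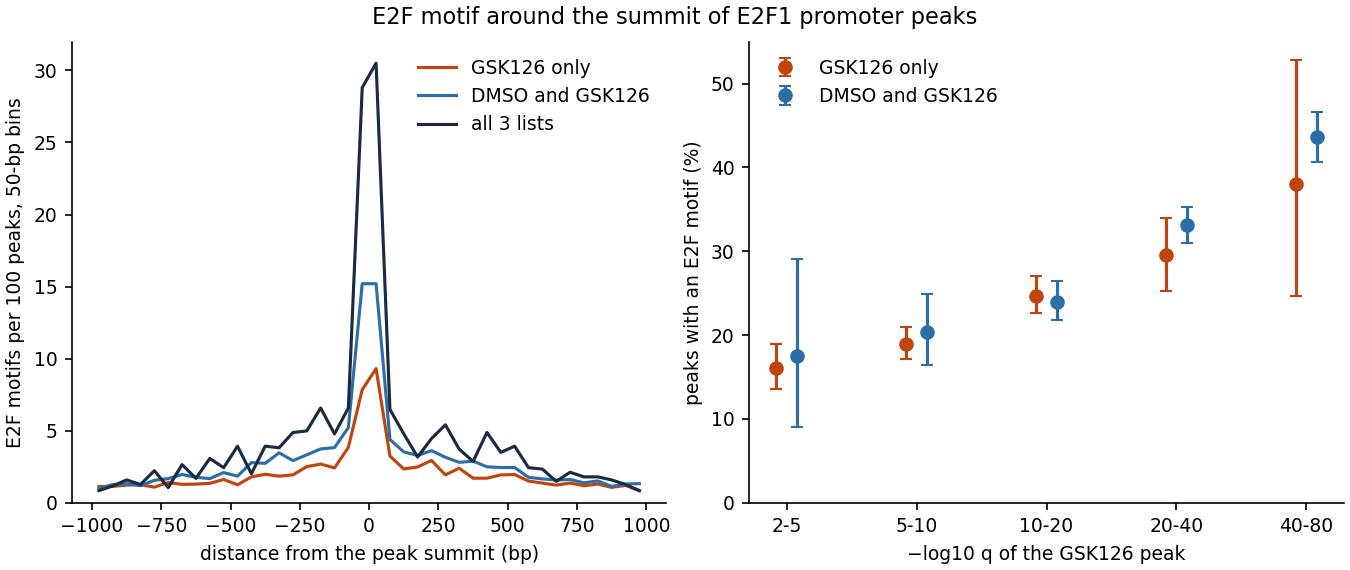
Left, E2F motifs per 100 peaks in 50-bp bins by distance from the summit, for the 3 classes of E2F1 promoter peak. Right, share of peaks with a motif within 100 bp of the summit by −log10 q of the peak, with 95% exact intervals as bars. The central bins hold up to 9.31 motifs per 100 GSK126-only peaks and 30.5 in peaks of all 3 lists, whereas within each bin of strength the intervals of the 2 classes on the right overlap.

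Other promoter motifs were searched in the same windows and on both strands. The SP/KLF box GGGCGGG, which can share bases with an E2F match, was present in 44% of GSK126-only peaks against 51.7% of peaks shared with DMSO (difference −7.63, −9.63 to −5.63) and 23.7% of all protein-coding TSS windows. The ETS site CCGGAAG was at 10.4% and 10.7%, a difference of −0.273 points (−1.50 to 0.968), and the YY1 site AAGATGG at 3.83% and 3.8% (difference 0.0364, −0.730 to 0.817). The NF-Y box (CCAATCA, the form CCAATGA, the form CCAATAG or the form CCAATGG) was at 9.15%, against 11.6% in peaks shared with DMSO and 20.6% in peaks of all 3 lists. The cell cycle homology region TTTGAA, found at promoters of mitotic genes, was at 4.36%, 5.09% and 11.6% in the same order. Over all protein-coding TSS windows the NF-Y share was 9.80% and that of TTTGAA 9.39%, so the GSK126-only peaks were not above these. The protein-coding TSSs were poorer in GC, with a median of 57.0% against 63.5%. For the motifs of this paragraph, no comparison with them was made at matched GC. Distal GSK126-only peaks held the AP-1 site (TGACTCA or its reverse complement) in 7.94%, against 2.87% at GSK126-only promoter peaks (difference −5.07, −6.24 to −3.97). Other motifs differed more between these classes. TTTGAA was at 10.7% of distal peaks (difference −6.37), the SP/KLF box at 11.8% (difference 32.2) and the ETS site at 1.71% (difference 8.69). The distal peaks were poorer in GC, with a median of 47.1%, and this comparison was not matched for GC.

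H3K27me3, which did not enter the choice of the peaks, was called more often at these promoters after E2F1 knockdown. An H3K27me3 peak of the control shRNA library overlapped 529 of the 4384 GSK126-only promoter peaks (12.1%, 11.1% to 13.1%), and one of the shE2F1 library overlapped 1785 (40.7%, 39.3% to 42.2%). The paired difference was 28.6 points (normal interval 27.3 to 30.0). It consisted of 1287 peaks (29.4%) with H3K27me3 in shE2F1 only and 31 (0.707%) with it in control shRNA only. Over all GSK126 promoter peaks these shares were 36.8% and 0.465%. The overlapping H3K27me3 peaks were mostly weak, at a median of 3.49-fold in control shRNA and 3.33-fold in shE2F1. The shE2F1 list was also the longer of the pair over the whole genome, with 135683 peaks against 123957, and the part of that in the difference was not tested.

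The knockdown difference was smaller at GSK126-only promoter peaks than at promoter peaks shared with DMSO. The latter overlapped H3K27me3 in 13.0% of cases in control shRNA and 54.9% in shE2F1, a paired difference of 41.8 points (40.5 to 43.2), and peaks of all 3 lists in 15.7% and 58.3%. In control shRNA the share at GSK126-only peaks differed from that at peaks shared with DMSO by −0.939 points (Newcombe interval −2.26 to 0.396), whereas in shE2F1 it differed by −14.1 points (−16.1 to −12.1). Wider E2F1 peaks have more room for an overlap, so windows of 500 bp on either side of each summit were also used. The shares were then 13.8% and 42.7% at GSK126-only peaks and 12.6% and 54.3% at those shared with DMSO, and the shE2F1 shares differed by −11.6 points (−13.6 to −9.58). At distal GSK126-only peaks the windows gave 14.8% and 22.9%, and at the 92827 protein-coding TSSs without an E2F1 peak 11.7% and 16.4%.

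GC content and peak strength moved with H3K27me3 or with the class, and the comparison was repeated within bins of each. The shE2F1 share in windows at GSK126-only peaks was 17.1% at 40% to 50% GC, 30.1% at 50% to 60%, 45.1% at 60% to 70% and 60.1% at 70% to 80%. At peaks shared with DMSO it was 19.2%, 39.9%, 54.9% and 72.5%. In the bin of 60% to 70% the difference was −9.71 points (−12.5 to −6.85), and at TSSs without an E2F1 peak the share there was 23.8%. In the lowest bin the difference, −2.12 points (−11.2 to 6.10), was within counting error. At a −log10 q of 10 to 20 of the E2F1 peak, H3K27me3 in shE2F1 overlapped 44.3% of GSK126-only peaks and 54.3% of those shared with DMSO (difference −10.1, −13.7 to −6.39). The difference was −11.7 (−17.3 to −6.11) at 5 to 10 and −13.6 (−18.7 to −8.48) at 20 to 40, whereas the interval at 2 to 5, −11.6 (−24.1 to 0.880), included 0. The lower share at GSK126-only peaks thus held in these 3 bins of strength above 5 and in the bins above 50% GC. The bins of strength were not matched for GC. At 10 to 20 the median GC was 63.8% in GSK126-only peaks and 66.2% in shared ones. They also used overlap with the whole E2F1 peak, not the windows, which leaves wider peaks more room.

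**Figure D5:**
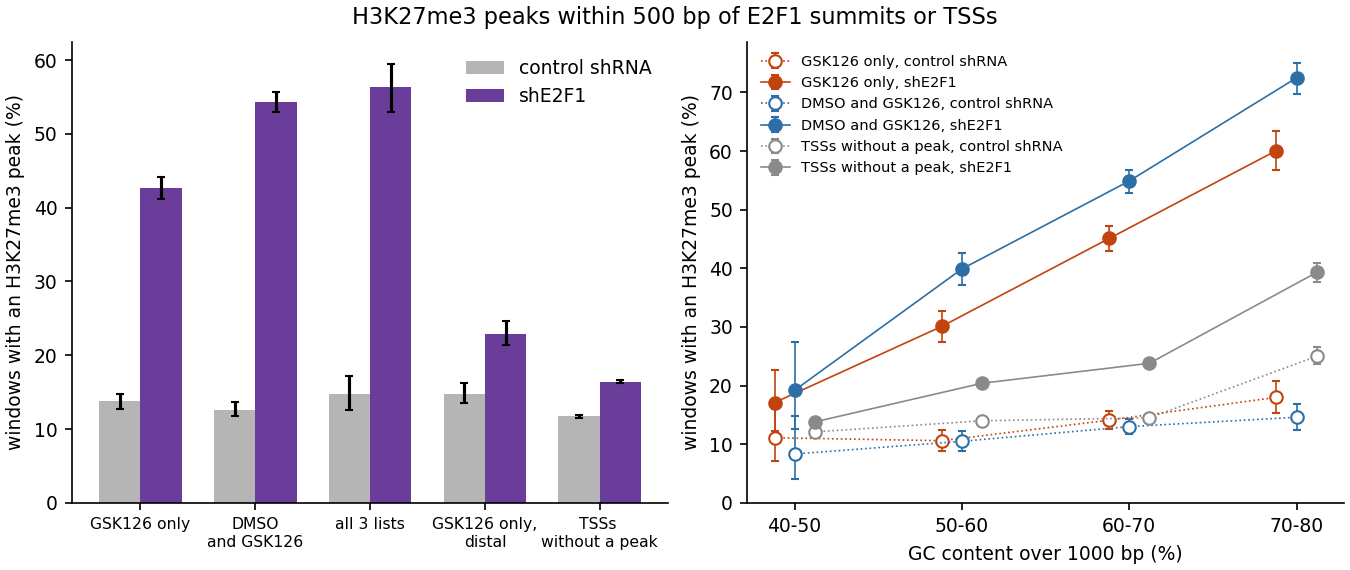
Left, share of windows of 500 bp on either side of a summit or TSS with an H3K27me3 peak in control shRNA (grey) and shE2F1 (purple) cells, for 4 classes of E2F1 peak of the GSK126 list and for protein-coding TSSs without an E2F1 peak. Right, the same by GC content over 1000 bp, with open symbols for control shRNA and filled ones for shE2F1. Bars are 95% exact intervals; GSK126-only promoter peaks go from 13.8% to 42.7% on the left and from 17.1% to 60.1% across GC bins in shE2F1 on the right.

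Within the GSK126-only promoter peaks, H3K27me3 in shE2F1 followed the kind of promoter. It was called at 45.1% of peaks with a CpG ratio of at least 0.6 and at 14.2% of the others. It was called at 42.6% of peaks with a protein-coding TSS and at 22.0% of the 396 without one (difference −20.6, −24.7 to −16.0). Where protein-coding TSSs lay on both strands the share was 50.9%, against 39.5% elsewhere (difference 11.3, 6.56 to 16.1). Peaks with an E2F motif had it in 36.6% of cases and those without in 41.9% (difference −5.28, −8.71 to −1.77). In control shRNA the corresponding shares with and without a motif were 10.9% and 12.4%. With protein-coding TSSs on both strands the control shRNA share was 15.1%, against 11.7% elsewhere (difference 3.38, 0.230 to 7.05). Without a protein-coding TSS it was 9.60%, against 12.3% with one (difference −2.72, −5.45 to 0.729). None of the splits in this paragraph was matched for GC content, with which the shE2F1 share rose, and the part of GC in them was not tested.

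The strongest H3K27me3 peaks in shE2F1 at GSK126-only sites with no control shRNA overlap named 6 sites. LMTK3, a kinase gene, had the highest −log10 q, 141, for a region of fold 20.8 on chromosome 19 from 48507981 to 48514050, and its E2F1 fold was 4.25. It was followed by the non-coding gene GTF2IRD1P1 (H3K27me3 fold 13.2), PINX1, a telomerase inhibitor (fold 11.6), HAGH, a glyoxalase (fold 10.5), ATG5, an autophagy conjugation factor (fold 9.98), and ENSG00000291201 (fold 11.3). The E2F1 folds at these 5 sites lay between 3.93 and 8.15.

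GSK126-only sites with strong H3K27me3 in control shRNA carried strong H3K27me3 in shE2F1 as well. The promoter shared by LRRC3C and ORMDL3, the latter a regulator of sphingolipid synthesis, had 18.4-fold enrichment in control shRNA and 18.2-fold in shE2F1. CCDC124, a ribosome-binding factor, had 16.1 and 16.6, and BAX had 10.9 and 12.9. E2F1 fold in GSK126 was 6.33, 6.09 and 6.86 at these sites, all above the median of the class.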

How the data were processed

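Peaks of 5 ChIP-seq libraries of MDA-MB-231 cells were analysed. An input sample of untreated cells was not used here. E2F1 was immunoprecipitated from sonicated and H3K27me3 from MNase-cut chromatin. Per the study's methods and the submitters' processing notes, the authors trimmed paired-end reads with cutadapt 4.5, aligned them to GRCh38 with Bowtie2 2.5.2 and called peaks per library with MACS2 2.2.9.1, in broad mode for H3K27me3. How reads with several alignments were treated is not given in the sources used here. The deposited columns used were fold enrichment (a ratio to background), −log10 of the p-value and q-value, and the summit offset.

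From these, E2F1 summits were assigned to the 218307 distinct TSSs of GENCODE release 44 on 23 chromosomes, and overlaps needed 1 bp. Fragments at a summit were solved from fold and p-value (pseudocount 1, relative error 2e-05) for every peak. H3K27me3 overlapped a peak from 1 bp, or lay within 500 bp of its summit. GC content was taken over 1000 bp, and sequences came from the hg38 reference. Shares carry exact Clopper-Pearson intervals, differences between classes Newcombe intervals and paired differences normal intervals. Peaks and genes share promoters and are not replicates. With 1 library per condition no p-value was computed. Scripts used Python 3.11.15, numpy 2.4.6, pandas 2.3.3, scipy 1.17.1, statsmodels 0.14.6 and pysam 0.24.0, and were tested on simulated data.

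The class of peaks and the 35 gene lists were chosen with earlier results of these data known. Named sites were the 12 strongest at protein-coding TSSs by −log10 q, the 3 strongest genes per list, all genes with such a peak in the E2F family, PRC2 and clock lists, the 6 strongest with H3K27me3 in shE2F1 only, the 4 strongest in control shRNA, the 3 strongest with 2 or more motifs, and the sites nearest each limit of the rule. Some sites that this rule names are not reported here.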

Additional observations from a re-analysis of the deposited data

How the results depend on the processing

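No paired analysis was possible because each condition has 1 library. Leaving out a replicate was not possible for the same reason. The number of GSK126-only promoter peaks stayed within 1.5 times of 4384 under each alternative tried, from 3640 for peaks reaching a −log10 q of 5 to 4407 without the untreated list, an alternative chosen after seeing the data. Their share of GSK126 promoter peaks was 37.4% for peaks reaching a −log10 q of 5 and 40.5% when DMSO and untreated peaks within 500 bp counted as shared. Strength was 14.7 at the median as fragments over the lowest background, which is another scale than fold. Median GC was 69.0% over 300 bp. The share with an E2F motif was 15.9% within 50 bp of the summit, 33.3% within 250 bp and 4.88% with the motif of 8 letters, which adds a T, and 22.9% among peaks reaching a −log10 q of 5. With H3K27me3 peaks that reached a −log10 q of 2, the shares were 8.03% in control shRNA and 26.6% in shE2F1, a difference of 18.5 points, which was 6.75 for those reaching 5. At the summit base alone the difference was 23.1 points, and within 500 bp of the summit 28.9. These shifts follow from fewer peaks or other windows, and no direction changed. Protein-coding genes with such a peak numbered 4253, and 3900 within 500 bp. A site absent from the DMSO list may still hold E2F1 signal below the calling threshold, which was not analysed here.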

Other observations

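The motif comparison was also made at a stricter match. The E2F motif of 8 letters was TTTCCCGC, TTTCGCGC, TTTGCCGC or TTTGGCGC. It lay within 100 bp of the summit in 4.88% of GSK126-only promoter peaks, against 2.05% of all protein-coding TSS windows, not matched for GC. It was present in 9.15% of promoter peaks shared with DMSO and 21.8% of those in all 3 lists.

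GSK126-only promoter peaks without a protein-coding TSS within 1 kb numbered 396. An E2F motif was present in 27.3% of them (22.9% to 31.9%), against 21.2% of the 3988 with a protein-coding TSS, a difference of 6.06 points (Newcombe interval 1.71 to 10.8). Peaks at protein-coding TSSs on both strands held the motif in 18.1% of cases and the others in 22.2% (difference −4.09, −7.59 to −0.120).

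Rarer motifs were few in the class. The NRF1 site GCATGCGC was present in 2.49% of GSK126-only promoter peaks, the CREB site TGACGTCA in 1.25%, the E-box CACGTG in 5.36%, the ZBTB33 site CTCGCGAG in 0.958% and the TATA box TATAAAA in 0.502%. Over all protein-coding TSS windows, not matched for GC, these shares were 1.91%, 1.23%, 4.74%, 0.672% and 2.87%.

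E2F1 peaks of the GSK126-only class at a −log10 q of 2 to 5 had H3K27me3 in control shRNA in 14.2% of cases (11.8% to 17.0%) and in shE2F1 in 37.6% (34.1% to 41.2%). At a −log10 q of 20 to 40 the shares were 10.7% (7.94% to 13.9%) and 42.2% (37.5% to 46.9%). Between them, at 10 to 20, the shares were 12.7% and 44.3% (41.8% to 46.8%), and the shE2F1 interval did not overlap that at 2 to 5. The share with an E2F motif was 16.1% (13.6% to 19.0%) at 2 to 5 and 29.5% (25.3% to 34.0%) at 20 to 40.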
